A study of Mus musculus with 2 samples.

Results

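In the colon of wild-type mice, a rule chose 299 of the epithelial cells with transcripts of Krt36, Nxpe2, Defb45, Fut9 or Dmkn. They stayed under set limits for genes that mark the other common epithelial cells. Those genes were not all absent, as Guca2a was above 0 in 48.5% and Muc2 in 16.7% of the 299 cells. The cells were chosen from the values themselves. A cell had to have an Epcam value of at least 5, Guca2a under 10, Muc2 under 20, Chgb under 20, Lgr5 at 0, a sum of Mki67, Birc5, Ube2c and Ccna2 under 5, and a sum of the 5 markers Krt36, Fut9, Defb45, Nxpe2 and Dmkn of at least 3. These 299 cells, called members here, were 9.94% of the 3008 cells with Epcam of at least 5 (Clopper-Pearson 95% interval 8.89 to 11.1, counting error only), 3.99% of the 7495 cells of the library, and part of a series of 11904 cells. The library held EpCAM+, CD45- epithelial cells and EpCAM-, CD45- other cells, sorted from the colon of 3 female C57BL/6 wild-type mice aged 8 to 12 weeks, mixed in equal parts and run with the version 3 kit of the Chromium 3′ assay, which counts transcripts per droplet. The second library of the series held GFP-positive mesenchymal cells of 3 female Pdgfra-H2B-eGFP mice of the same age, which carry a nuclear reporter of Pdgfra expression. It contained 1 cell that met the rule and was not compared. The mice were pooled and cells were not traced to a mouse, so every comparison sets cells of 1 library side by side, with no test between animals and no p-value.

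The colon epithelium renews from Lgr5-expressing stem cells at the crypt base, whose daughters divide and then become absorptive colonocytes, mucus-secreting goblet cells or hormone-secreting enteroendocrine cells. Mature colonocytes take up salt, water and short-chain fatty acids through exchangers and carbonic anhydrases, and they express Guca2a, the precursor of the peptide guanylin. Along the length of the gut, position is marked by the Cdx and Hox transcription factor genes, and within a Hox cluster the genes at one end are used toward the front of the body and those at the other end, with the highest numbers, toward the rear. Krt36 is a hair-type keratin, Defb45 a beta-defensin, Fut9 a fucosyltransferase that makes the Lewis x sugar, Nxpe2 a member of the neurexophilin and PC-esterase domain family, and Dmkn encodes dermokine, a secreted protein best known from the skin.

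Values are corrected counts, that is, transcript counts adjusted by the SCTransform procedure to a common depth, and a level is their mean per cell. Totals per cell ranged from 6120 to 16389 in the library (median 8972), and a median of 3111 genes had a value above 0 in members and of 3155 in the other 2709 cells with Epcam of at least 5. By the same genes, those 2709 cells fell into 65 Chgb-high, 750 Muc2-high, 308 cycling, 200 Lgr5-positive and 528 Guca2a-high cells, and 858 cells that met every exclusion but stayed below the marker cut. A gene was counted as higher or lower where the means of a pair of classes differed at least 2-fold, with a pseudocount of 0.01 and a mean of at least 0.05 in either class. The 14 genes of the rule were left out of these counts.

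The 5 markers were unevenly shared among the members. Krt36 was the most abundant, with a lowest value of 0, a median of 1 and a highest value of 48. It was above 0 in 180 members (60.2%) and made up 49.3% of the marker sum. Nxpe2 was above 0 in 57.5% of members, with a median of 1 and a highest value of 14. Defb45 was above 0 in 51.5%, Fut9 in 41.5% and Dmkn in 21.1%. Fut9 was nearly as widespread in Lgr5-positive cells, above 0 in 39% (mean 0.85, against 0.87 in members). In the Lgr5-positive cells Krt36, Nxpe2, Defb45 and Dmkn were above 0 in 9%, 17%, 12.5% and 5.5%. Most members carried more than 1 of these genes, as 1 marker was above 0 in 74 cells, 2 in 93, 3 in 98, 4 in 31 and all 5 in 3. Of the 74 cells with a single marker, 48 had Krt36 and 20 had Nxpe2, while none had Defb45 alone. Correlations across the 299 members were taken on ln(1 + value). Krt36 was negatively correlated with Nxpe2 (Pearson's r = -0.456) and with Fut9 (r = -0.355), whereas Fut9 was positively correlated with Defb45 (r = 0.289) and with Nxpe2 (r = 0.277). These cells share a library and were all required to reach the same sum of these genes.

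The marker cut divides a range. Just inside it, 39 members had a sum of 3 and 31 a sum of 4. Just outside it, 69 cells had a sum of 2 and 109 a sum of 1, and 680 cells had none of the markers. Sums of 10 to 19 were found in 89 members, and 24 members reached 20 or more. Counting cells that the exclusions removed, 473 cells with Epcam of at least 5 had a sum of at least 3. The highest Krt36 value, 70, was in a cycling cell, and the highest Nxpe2 value, 29, in a Muc2-high cell.

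Each marker was also read in cells chosen without it. Among cells that passed the exclusions, Krt36 was above 0 in 82 of 201 cells whose other 4 markers summed to 3 or more (40.8%, 33.9 to 47.9), and in 80 of 760 cells whose other 4 markers were at 0 (10.5%, 8.44 to 12.9). Defb45 was above 0 in 46.5% against 4.23%, and Nxpe2 in 45.5% against 8.73%. Fut9 was above 0 in 37.3% against 5.16% and Dmkn in 16.9% against 1.59%. For each of the 5 genes the counting intervals of both sets were apart, and the median gene number lay between 3033 and 3142 in all of these sets. In the 4487 cells of the library with Epcam under 5, Nxpe2 was above 0 in 2.01% and Krt36 in 0.379%, and the other 3 markers were above 0 in 0.156% or fewer.

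**Figure D1:**
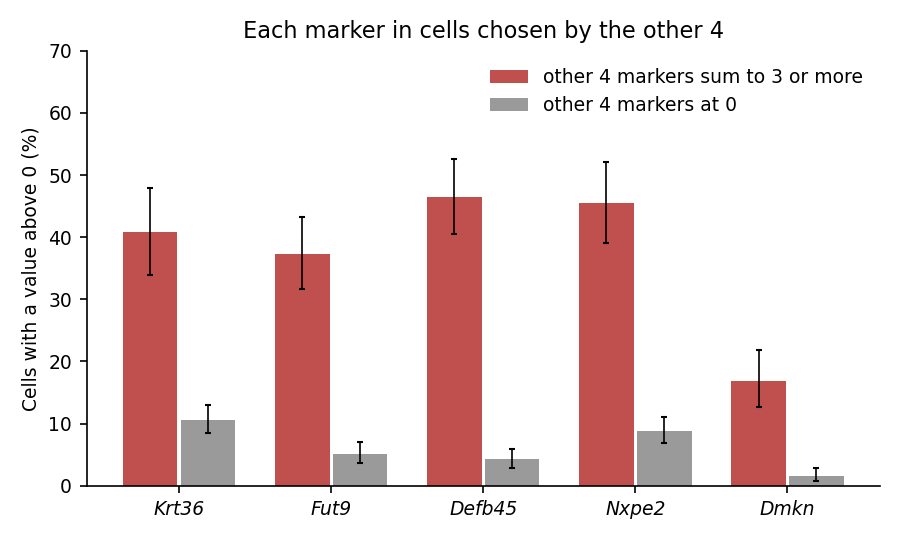
Share of cells with a value above 0 (y axis, %) for each of the 5 markers (x axis), in cells whose other 4 markers summed to 3 or more and in cells whose other 4 markers were at 0, all passing the exclusions. Error bars are Clopper-Pearson 95% intervals, which cover counting error only. Krt36 was at 40.8% against 10.5% and Dmkn at 16.9% against 1.59%.

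In GENCODE M21 on GRCm38 the markers lie on 5 chromosomes. Krt36 is at chr11:100102007-100105626 on the minus strand, Nxpe2 at chr9:48318006-48353454 (minus), Defb45 at chr2:152593191-152599399 (minus), Fut9 at chr4:25609332-25800244 (minus) and Dmkn at chr7:30763756-30781063 (plus). Nxpe4, a family member of Nxpe2 that the rule did not use, is annotated around it on the opposite strand at chr9:48162023-48400025, and the RefSeq starts of Nxpe2 and Nxpe4 are 21143 bp apart. The strand setting of the counting is not given in the sources used here, so reads of these overlapping genes may not be fully separated. Krt36 was above 0 together with Nxpe2 in 23.1% of members and with Defb45 in 28.4%, and Defb45 together with Nxpe2 in 35.1%. The 150 bases before the RefSeq start (GRCm38.p6) are printed for Krt36 (chr11:100105627-100105776, minus), Nxpe2 (chr9:48340899-48341048, minus), Nxpe4 (chr9:48361891-48362040, plus) and Defb45 (chr2:152596486-152596635, minus). They run 5′ to 3′ on the strand of the gene, and capitals mark matches to TATANAA on either strand.
Krt36: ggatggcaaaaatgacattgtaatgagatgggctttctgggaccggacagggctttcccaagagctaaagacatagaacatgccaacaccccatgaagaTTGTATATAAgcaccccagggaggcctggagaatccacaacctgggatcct
Nxpe2: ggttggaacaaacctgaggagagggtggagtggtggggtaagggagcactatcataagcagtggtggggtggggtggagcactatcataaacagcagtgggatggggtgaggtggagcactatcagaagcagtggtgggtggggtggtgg
Nxpe4: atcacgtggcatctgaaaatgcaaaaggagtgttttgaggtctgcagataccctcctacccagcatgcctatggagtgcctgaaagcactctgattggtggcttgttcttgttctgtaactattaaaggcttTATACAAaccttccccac
Defb45: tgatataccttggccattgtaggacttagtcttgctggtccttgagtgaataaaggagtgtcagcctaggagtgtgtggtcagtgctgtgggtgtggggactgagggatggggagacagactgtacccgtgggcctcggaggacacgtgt
Krt36 held overlapping matches whose first bases lie 51 and 48 bases before the start, and Nxpe4 held a match that begins 18 bases before it. The windows of Nxpe2 and Defb45 held none. A second motif, TTTATNG on either strand, which CDX and posterior HOX proteins are known to bind, was not matched in any of the 4 windows. Of all 32851 RefSeq windows of this length, 6.17% held TATANAA, 5.81% held TTTATNG and 0.834% held matches of both that share bases. Fut9 had no entry.

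Cdx and Hox genes, which the rule did not use, differed between members and the rest of the epithelium, in opposite directions within the HoxB cluster. Of 22 genes of the Cdx and Hox list that were tested, 5 were at least 2-fold higher in members than in all other cells with Epcam of at least 5, beside 2.33% of the 11009 genes tested, and 8 were lower, beside 9.44%. The higher genes were Hoxb13, Hoxd10, Hoxd11, Hoxd12 and Hoxd13, and the lower genes were Cdx2, Osr2 and the 6 genes from Hoxb3 to Hoxb8. None of the HoxA genes differed 2-fold, and the log2 ratios of Hoxa5, Hoxa7, Hoxa9, Hoxa10 and Hoxa13 lay between -0.51 for Hoxa7 and 0.67 for Hoxa13, the most posterior gene of that cluster. The median log2 ratio of the list was -0.10, against -0.06 over all genes tested.

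Hoxb13, the most posterior gene of the HoxB cluster, was above 0 in 287 of 299 members (96.0%, 93.1 to 97.9) with a mean of 5.10. In the other epithelial cells it was above 0 in 48.2% with a mean of 1.84 (log2 ratio 1.47), and in 2080 stromal cells of the same library in 1.78%. The HoxD genes were sparser and were read together. At least 1 of Hoxd10, Hoxd11, Hoxd12 and Hoxd13 was above 0 in 162 members (54.2%, 48.4 to 59.9), in 387 of the 2709 other epithelial cells (14.3%, 13.0 to 15.7) and in 22.6% of the stromal cells. Hoxd13 had a mean of 0.555 in members and 0.142 in the other epithelial cells (log2 ratio 1.89), and Hoxd11 had means of 0.425 and 0.0897 (log2 ratio 2.12).

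Genes nearer the other end of HoxB showed the reverse. At least 1 of Hoxb3, Hoxb4, Hoxb5, Hoxb6, Hoxb7 and Hoxb8 was above 0 in 16 members (5.35%, 3.09 to 8.55), in 878 of the other epithelial cells (32.4%, 30.7 to 34.2) and in 57.0% of the Lgr5-positive cells. Hoxb9, which lies between this block and Hoxb13, differed by less than 2-fold (log2 ratio -0.62). On chromosome 11 the cluster runs from Hoxb13, which ends at 96197447, through Hoxb9 and Hoxb8, which starts at 96281905, to Hoxb3, which ends at 96347930. A transcript of the Hoxb3 to Hoxb8 block and one of Hoxd10 to Hoxd13 were found together in 5 members.

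Cdx2, a regulator of intestinal identity, was above 0 in 60 members (20.1%, 15.7 to 25.1) and in 55.6% of the other epithelial cells, and its mean was 0.288 against 1.39 (log2 ratio -2.24). Its paralog Cdx1 was above 0 in 97.0% of members and 86.9% of the others, with a log2 ratio of 0.44. Osr2, a zinc finger factor, was above 0 in 1.34% of members and 17.4% of the other epithelial cells. Stromal RNA was scarcer in members than in the rest, so the same shares were read in cells whose fibroblast and smooth muscle genes summed to under 10, an alternative chosen after seeing the data. There Hoxd10 to Hoxd13 were above 0 in 56.0% of 282 members and 14.7% of 2205 other epithelial cells, Hoxb3 to Hoxb8 in 5.32% and 35.1%, Hoxb13 in 97.5% and 52.4%, and Cdx2 in 20.6% and 61.9%.

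**Figure D2:**
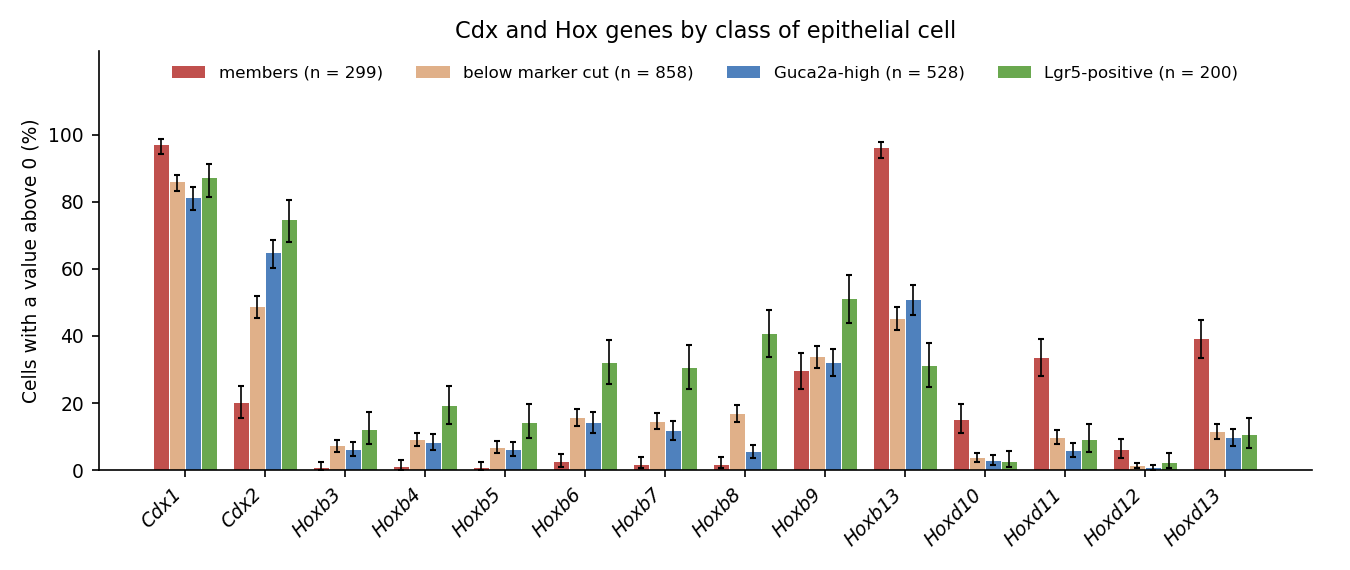
Share of cells with a value above 0 (y axis, %) for 14 Cdx and Hox genes (x axis) in members, cells below the marker cut, Guca2a-high cells and Lgr5-positive cells, with Clopper-Pearson 95% intervals. Members lead at Hoxb13 (96.0%) and Hoxd10 to Hoxd13 and are lowest at Cdx2 (20.1%) and at Hoxb3 to Hoxb8.

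The same positional genes were read in cells that the exclusions had removed, split by the same marker sum, a comparison chosen after seeing the data. Among Lgr5-positive cells, Hoxb13 was above 0 in 79.5% of the 44 cells with a marker sum of 3 or more and in 8.57% of the 105 cells with none of the markers. Hoxd10 to Hoxd13 were above 0 in 29.5% and 3.81% of these cells, Hoxb3 to Hoxb8 in 22.7% and 74.3%, and Cdx2 in 43.2% and 83.8%. The stem cell gate thus held cells of both Hox patterns, and the pattern of the marker-carrying ones had the direction of the members.

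Among cycling cells, Hoxb13 was above 0 in 90.5% of the 42 cells with a marker sum of 3 or more and in 30.5% of the 203 cells without the markers. Hoxd10 to Hoxd13 were above 0 in 59.5% and 4.43% of them, Hoxb3 to Hoxb8 in 9.52% and 49.8%, and Cdx2 in 26.2% and 82.3%. In Muc2-high cells the shares of Hoxb13 and of Hoxd10 to Hoxd13 lay closer together, and Cdx2 went the other way. Hoxb13 was above 0 in 65.3% of 72 such cells with a marker sum of 3 or more and 49.3% of 533 without, Hoxd10 to Hoxd13 in 12.5% and 12%, and Cdx2 in 61.1% and 47.1%. In Guca2a-high cells a marker sum of 3 or more was found in 13 cells, all with Hoxb13, against 47.0% of 481 without the markers.

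**Figure D3:**
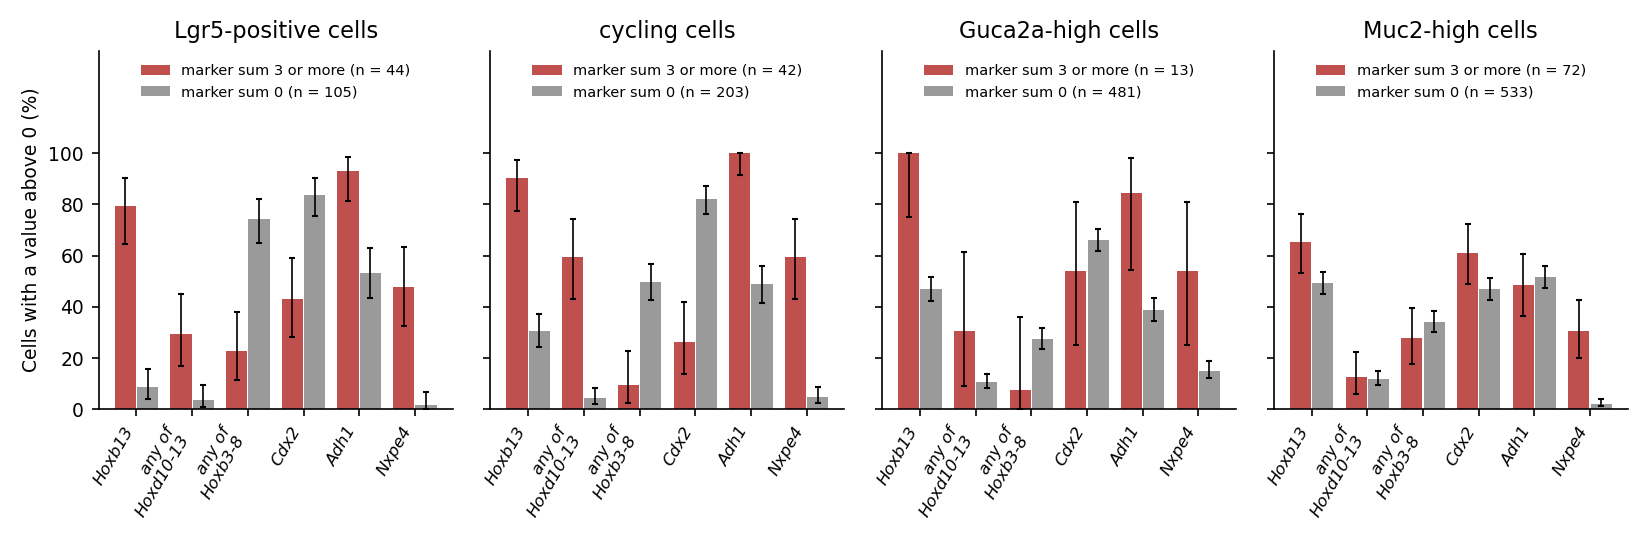
Share of cells with a value above 0 (y axis, %) for positional and other genes (x axis) in cells that the exclusions removed, split into a marker sum of 3 or more and a marker sum of 0, with Clopper-Pearson 95% intervals. In Lgr5-positive cells Hoxb13 was above 0 in 79.5% against 8.57% and in cycling cells in 90.5% against 30.5%.

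The positional genes also followed the marker sum in steps among the cells that passed the exclusions. Hoxb13 was above 0 in 37.2% of cells with a sum of 0, in 74.3% at 1, 76.8% at 2, 87.2% at 3, 93.5% at 4, 96.6% at 5 to 9 and 99.1% at 10 or more. Hoxd10 to Hoxd13 went from 13.4% through 31.9% at a sum of 2 to 61.1% at 10 or more. Cdx2 lay at 49.1% with no marker, 44.9% at a sum of 2, 30.8% at 3 and 15.9% at 10 or more. The cut of 3 therefore falls within a graded series for these genes. Cells with no marker had a fibroblast sum of 10 or more in 28.8% of cases, against 1.77% at a marker sum of 10 or more, and the part of this difference in the steps was not tested.

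Outside the positional genes, the largest ratios of members over the other epithelial cells belonged to enzymes, secreted proteins and regulators of several kinds. Adh1, an alcohol dehydrogenase that also oxidizes retinol, was the most widely found, above 0 in 98.3% of members with a median of 9 and a highest value of 34, and in 59.2% of the others (means 9.79 and 2.28, log2 ratio 2.10). Plbd1, a phospholipase B-like protein, was above 0 in 69.6% and 21.9%. Foxq1, a forkhead transcription factor, was above 0 in 67.2% and 26.2% (log2 ratio 1.86), and Phlda2 in 56.2% and 15.7% (log2 ratio 2.12). These genes were present in most members and in a minority of the others, Adh1 excepted.

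Several further genes, Slc1a1 excepted, were sparser, both in members and in the other epithelial cells. Nxpe4 was above 0 in 134 members (44.8%, 39.1 to 50.7) and in 11.3% of the other epithelial cells (means 1.02 and 0.174, log2 ratio 2.49). Without Nxpe2 in the marker sum this log2 ratio was 1.86, and that over cells below the cut fell from 2.99 to 1.685. Casp14, a caspase of cornifying skin cells, was above 0 in 24.1% and 3.21% (log2 ratio 2.65). Cxcl5, a neutrophil-attracting chemokine, was above 0 in 19.7% and 2.92% (log2 ratio 2.58). Trf, which encodes transferrin, was above 0 in 30.8% and 4.47%, and Gatm, the first enzyme of creatine synthesis, in 39.1% and 10.4%. Slc1a1, a glutamate transporter, was above 0 in 56.9% and 18.2%. Among the 20 highest ratios were also Tmprss13, Rims4, Cyp2f2, Timp4, Sh3bgr, Celf4 and AI854703, with log2 ratios from 1.94 to 2.30, together with Hoxd11 and Hoxd13.

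The 12 lowest ratios over the other epithelial cells belonged to genes of mature secretory and surface cells. Retnlb and Clca1, products of goblet cells, had means of 0.0401 and 0.174 in members against 3.52 and 5.72 in the others. Reg3b and Reg3g, antimicrobial lectins, had means of 0.0635 and 0.0134 against 2.25 and 0.668. Car4, a membrane carbonic anhydrase of colonocytes, had a mean of 0.0268 against 1.13 (log2 ratio -4.95), and Cyp2c55 had one of 0.0368 against 3.65 (log2 ratio -6.29). Nov, Sptssb, Apol10a, 1810065E05Rik, Mt3 and Sct made up the rest, with log2 ratios from -6.20 to -4.41. The other epithelial cells include the Muc2-high and Chgb-high cells that the rule removed, so low goblet and enteroendocrine genes follow from the choice of members.

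Many mature colonocyte genes had low means in members, although these cells have been placed with the absorptive lineage. Of 27 colonocyte genes tested, 2 were higher and 17 lower in members than in other epithelial cells, beside 2.33% and 9.44% of all genes. Their median log2 ratio was -2.23. Against the 528 Guca2a-high cells 1 was higher and 24 were lower (median log2 ratio -3.94), beside 17.2% of 10608 genes higher and 8.93% lower and a median of 0.24 over all genes. Car1, a cytosolic carbonic anhydrase, had a mean of 1.69 in members and 112.6 in Guca2a-high cells (log2 ratio -6.05). Krt20, a keratin of differentiated colonocytes, was above 0 in 5.02% of members and 77.1% of Guca2a-high cells. Slc26a3, the chloride-bicarbonate exchanger, had means of 0.0970 and 4.43, and Aqp8, a water channel, 0.191 and 2.70. Slc9a3, a sodium-hydrogen exchanger, was above 0 in none of 299 members, which allows up to 1.00% of cells with a value above 0 and does not show that the gene was not expressed, and in 38.3% of Guca2a-high cells. The rule capped Guca2a, so a low level of genes found with it follows in part from the choice of cells. The 858 cells below the marker cut had the same cap, and against them 2 of 24 colonocyte genes were higher and 12 lower in members (median log2 ratio -1.18), beside 2.5% and 6.67% of 10879 genes. Guca2a was not matched under this cap, with means of 1.31 in members and 2.37 below the cut. The summed colonocyte list without Guca2a differed between mean and median. Its median was 49 in members, 38 below the cut, 35 in all other epithelial cells and 364 in Guca2a-high cells. Its means were 62.5, 83.8, 125.7 and 415.1 in the same order. Members thus lay far below Guca2a-high cells by either measure, but by median not below the other sets. The word absorptive was not borne out by the comparison with Guca2a-high cells, and the cells are named here by their leading genes.

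Not every gene of the surface was low. Muc3, a transmembrane mucin of the brush border, had a mean of 14.5 in members, 16.5 in Guca2a-high cells and 6.08 in all other epithelial cells. Aldh1l1, a folate enzyme, had means of 0.983, 0.419 and 0.284 in the same order, and was the colonocyte list gene that was higher in members in both comparisons. Lypd8, a secreted protein that keeps bacteria from the mucosa, had means of 28.6, 127.9 and 42.0, and Fabp2, a fatty acid binding protein, had means of 0.873, 17.2 and 6.58. The median share of mitochondrial transcripts was 8% in members and 12.8% in Guca2a-high cells.

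**Figure D4:**
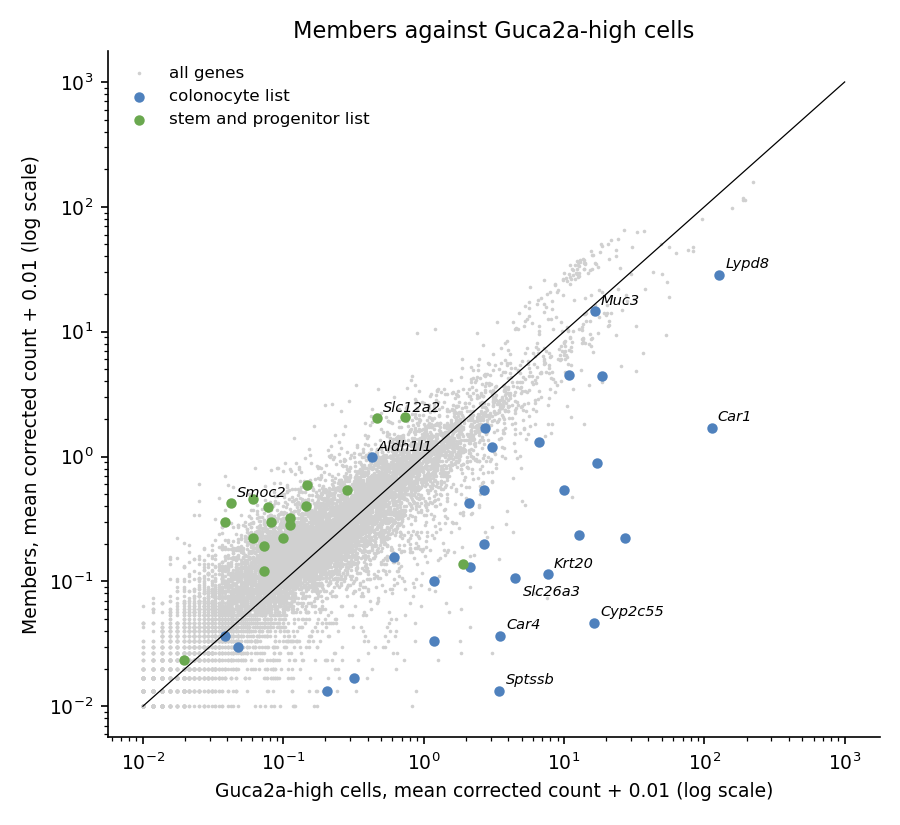
Mean corrected count plus 0.01 of each gene in Guca2a-high cells (x axis, log scale) and in members (y axis, log scale), with colonocyte genes in blue and stem and progenitor genes in green. Most blue points lie below the line of equal means, such as Car1 at 1.69 against 112.6, Muc3 lies near it at 14.5 against 16.5, and most green points lie above it.

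Genes of stem and progenitor cells lay above the Guca2a-high cells and near the rest of the epithelium. Of 17 tested, 14 were higher and 1 lower in members than in Guca2a-high cells (median log2 ratio 1.52), beside 17.2% and 8.93% of all genes and a median of 0.24. Against all other epithelial cells none was higher and 2 were lower (median log2 ratio 0.04), beside 2.33% and 9.44% of all genes. Smoc2, a matrix protein of stem cells, had means of 0.415 in members, 0.0322 in Guca2a-high cells and 0.389 in all others. Sox9, a transcription factor of the crypt, had means of 2.05, 0.722 and 1.60. Of 11 Wnt target genes, 10 were higher in members than in Guca2a-high cells (median log2 ratio 1.5, beside the same 17.2%), among them Axin2, a feedback inhibitor of the pathway, with means of 0.288 and 0.0720, and Ascl2, a stem cell transcription factor, with 0.288 and 0.0284. Lgr5 was fixed at 0 by the rule. Of 26 cell cycle genes outside the rule, 18 were lower than in all other epithelial cells, beside 9.44% of all genes, in a class that holds the cycling cells.

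The highest ratios of members over Guca2a-high cells were those of Cttnbp2, Gatm, Trf, Smpx, Nox1, Tmprss13, Bex4, Hopx, Wfdc18 and Hid1, with log2 ratios from 3.67 to 4.59. Hopx, a homeodomain-only protein, was above 0 in 78.9% of members and 9.28% of Guca2a-high cells, with means of 2.58 and 0.188. Nox1, an NADPH oxidase of the colon epithelium, was above 0 in 21.1% and 1.14%. Of 81 cytosolic ribosomal protein genes, 71 were higher in members than in Guca2a-high cells, beside 17.2% of all genes (median log2 ratio 1.30, against 0.24 over all genes), and none differed 2-fold from all other epithelial cells (median 0.48).

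Of 44 genes of ion and water transport, 1 was higher and 16 were lower in members than in the other epithelial cells (median log2 ratio -0.47), beside 2.33% and 9.44% of all genes. The higher one was Slc5a8, a sodium-coupled transporter of short-chain fatty acids, with means of 4.16 and 1.32 (log2 ratio 1.64). Against Guca2a-high cells 7 transport genes were higher and 23 lower, beside 17.2% and 8.93% of all genes, so the share of higher genes was near that of all genes. Among the higher ones, Kcnn4 and Kcne3, which encode a basolateral potassium channel and a channel subunit of chloride-secreting cells, had means of 1.39 and 0.110 for Kcnn4 and of 2.64 and 0.214 for Kcne3. Slc12a2, the sodium-potassium-chloride cotransporter of crypt cells, had means of 2.03 in members and 0.455 in Guca2a-high cells.

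Among 51 genes of glycan synthesis, 4 were higher and 19 lower in members than in the other epithelial cells (median log2 ratio -0.49), beside 2.33% and 9.44% of all genes. The higher ones were B3gnt7, B3gnt5, B3gnt8 and B4galnt3, of which the B3gnt enzymes add N-acetylglucosamine and B4galnt3 adds N-acetylgalactosamine to sugar chains. B3gnt7 was the most abundant, with means of 3.71 in members, 1.31 in all other epithelial cells, 0.828 below the marker cut and 0.322 in Guca2a-high cells. B4galnt1, a ganglioside synthase, had means of 0.110 in members and 0.889 in the others (log2 ratio -2.90), and Gcnt3, a mucin core enzyme, 0.0769 and 1.36 (log2 ratio -3.98). B3gnt6, the core 3 enzyme of goblet cells, had means of 0.0201 and 0.425.

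Of 29 defence genes, 5 were higher and 11 lower than in the other epithelial cells (median log2 ratio -0.28), beside 2.33% and 9.44% of all genes, the shares that apply to each list in this comparison. Wfdc2, a secreted protease inhibitor, had a mean of 16 in members against 5.18 (log2 ratio 1.62), and Gsdmc4, a gasdermin, one of 10.4 against 5.03 (log2 ratio 1.05). None of 19 interferon and antigen presentation genes was higher and 10 were lower (median log2 ratio -1.31), among them Isg15 with means of 0.0234 and 0.544, Ifit1 with 0.0134 and 0.231, and Irf7 with 0.0803 and 0.672. Of 45 genes of xenobiotic metabolism, 4 were higher, namely Adh1, Cyp2f2, Ces2g and Gstm1, and 13 were lower (median log2 ratio -0.40). Of 24 mitochondrial fat oxidation genes, 3 were lower, a share near that of all genes, and none was higher (median log2 ratio -0.17).

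Of 53 transcription factor genes, 3 were higher and 10 lower in members than in the other epithelial cells (median log2 ratio -0.10), beside 2.33% and 9.44% of all genes. The higher ones were Foxp2, Nr1h3 and Id1. Id1, a target of Bmp signals, had means of 6.65 and 3.22 (log2 ratio 1.04), while its relatives Id2 and Id3 had log2 ratios of -0.32 and -0.73. Among the lower ones, Isx, a homeobox gene that controls carotenoid uptake, had means of 0.0268 and 0.300, and Tbx3 had 0.0134 and 0.115. Spdef and Atoh1, factors of the secretory lineage, had log2 ratios of -4.02 and -3.21 over a class that includes the Muc2-high cells. Of 11 Egf family genes 1 was higher and 2 were lower, beside the same shares, with Epgn, which encodes epigen, at means of 0.0502 and 0.0151. Areg, which encodes amphiregulin, had means of 6.88 in members and 6.48 in the others.

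The nearest class by overall profile was that of the 858 cells below the marker cut, with a Spearman's rho of 0.920 across 5142 genes, followed by Lgr5-positive cells (0.829), Guca2a-high cells (0.804), cycling cells (0.793), Muc2-high cells (0.776) and Chgb-high cells (0.524). The share of these genes at least 2-fold apart in either direction gave another order. It was 8.985% for cells below the cut, 19.6% for cycling, 19.7% for Lgr5-positive and 23.8% for Muc2-high cells. Guca2a-high cells followed with 26.9% and Chgb-high cells with 46.7%. Genes are not independent replicates, and all of these classes share a library. The highest ratios of members over the cells below the cut were those of Nxpe4 (means 1.02 and 0.120, log2 ratio 2.99), Trf (0.431 and 0.0489), Tmprss13, Sh3bgr, Casp14, C4bp, B3gnt7, Itih2, Cxcl5 and Ttr. Ttr, which encodes transthyretin, was above 0 in 57.9% of members and 20.8% of cells below the cut.

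Some of the genes lower in this comparison belong to other cell types. The 10 lowest ratios included Hbb-bs, a haemoglobin gene, and the smooth muscle genes Tagln, Myl9 and Acta2, with log2 ratios from -5.33 to -3.28. The summed level of 10 fibroblast genes reached 10 or more in 5.69% of members and 24.7% of cells below the cut, with means of 3.29 and 17.8 and highest sums of 228 and 420. Without the cells that carried stromal or haemoglobin RNA the log2 ratio of Hbb-bs was -0.18, that of Tagln -0.40 and that of Myl9 -0.84. The other lowest ratios were those of Car4, Reg3g, Saa1, Cyp2c55, Reg3b and Apol10a.

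Markers of non-epithelial cells were sparse in members. Fibroblast genes most often reached a sum of 10 or more, in 5.69% of members and 17.9% of the other epithelial cells. Immune genes reached it in 2.34% and 0.591%. Sums above 0 were found for immune genes in 16.7% of members and for fibroblast genes in 9.4%. Sums of 10 or more were reached for fibroblast genes in 17 members, for smooth muscle and pericyte genes in 3 members, for endothelial genes in 1, for immune genes in 7, for haemoglobin genes in 2 and for enteroendocrine genes in 2, and in none for tuft and glial genes. Ptprc, Trpm5 and Sox10 had no value above 0 in members, with the same limit. Goblet genes other than Muc2 summed to 10 or more in 55.9% of members and 46.6% of the other epithelial cells, with medians of 10 and 8, although the mean was 23.6 against 139.7. Deep crypt secretory genes summed to 10 or more in 161 members (53.8%) and in 47.4% of the others, with medians of 10 and 9 and a highest sum of 2023 in a member. The doublet caller marked 5 of 7495 cells, which is too few to have worked, and none of them was a member, so doublets were not removed.

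Within the members, cells led by Krt36 were set beside cells led by Nxpe2. A split by the marker with the highest value, chosen after seeing the data, gave 124 Krt36-led, 92 Nxpe2-led, 41 Fut9- or Defb45-led and 14 Dmkn-led cells and 28 ties. Of 10521 genes tested, 6.96% were higher and 10.5% lower in Krt36-led than in Nxpe2-led cells. The groups were formed from marker values of the rule. No other split was made and the alternative settings did not cover this one, so these shares have no yardstick. Guca2a, which the rule only capped, was at 0 in 28.2% of Krt36-led and 71.7% of Nxpe2-led cells. Their median gene numbers were 3055.5 and 3185.

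The 15 highest ratios of Krt36-led over Nxpe2-led cells included surface, cornification and secretory genes. Tgm3, a transglutaminase that crosslinks proteins in skin and hair, was above 0 in 42.7% of Krt36-led and 3.26% of Nxpe2-led cells, with means of 5.40 and 0.0543 (log2 ratio 6.39). Sprr1a, a cornified envelope protein, was above 0 in 61.3% and 17.4%, with means of 9.82 and 1.02. Eno3, an enolase, was above 0 in 58.9% and 13.0%, and Pmp22, a membrane protein of myelin, in 61.3% and 15.2%. Fxyd4, a subunit of the sodium pump, had means of 2.30 and 0.109. Products of secretory cells were in the same set, with means of 26.6 and 1.42 for Mptx1, of 8.83 and 0.761 for Spink4 and of 2.36 and 0.163 for Zg16, although Mptx1 was above 0 in 35.5% of Krt36-led and 44.6% of Nxpe2-led cells and Spink4 in 22.6% and 19.6%, so a minority of cells with high values carried these means. The summed level of the colonocyte list was 83.0 and 44.3, that of keratins 111.3 and 64.7, that of junction genes 59.1 and 40.5, that of goblet genes 30.4 and 13.9, and that of deep crypt secretory genes 51.0 and 14.1. In the 14 Dmkn-led cells the colonocyte sum was 91.3 and Tgm3 had a mean of 4.57.

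Among the genes higher in Nxpe2-led cells, Nxpe4 was above 0 in 80.4% of them and in 21.0% of Krt36-led cells, with means of 2.16 and 0.323 (log2 ratio of Krt36-led over Nxpe2-led cells -2.71). Rnf186, a ubiquitin ligase of the colon, was above 0 in 67.4% and 15.3%, Axin2 in 39.1% and 7.26%, and Cttnbp2 in 60.9% and 16.1%. Hspa1a, a heat shock protein, had means of 7.86 and 1.5. The sum of the stem and progenitor list was 11.7 in Nxpe2-led and 5.41 in Krt36-led cells, and that of ribosomal protein genes was 2515 and 1971.9. Fut9- or Defb45-led cells had sums of 12 and 2638.9 for these lists and Rnf186 above 0 in 68.3%.

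Other genes were at close levels in both groups. Hoxb13 had means of 5.26 in Krt36-led and 4.97 in Nxpe2-led cells, Muc3 15.4 and 14.8, Slc5a8 4.32 and 4.29, Foxq1 2.35 and 2.14, and Wfdc2 17.3 and 15.4. Positional genes other than Hoxb13 were less even. Cdx2 was above 0 in 12.9% of Krt36-led and 32.6% of Nxpe2-led cells (means 0.177 and 0.467, log2 ratio -1.35), and Hoxb9 in 21.0% and 40.2% (log2 ratio -1.19). Hoxa7, Hoxa9, Hoxa5 and Hoxa13 had log2 ratios of -1.69, -1.54, -1.41 and -1.11. Hoxd11 was above 0 in 35.5% and 18.5% and Hoxd13 in 45.2% and 28.3%, with log2 ratios of 0.67 and 0.30.

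**Figure D5:**
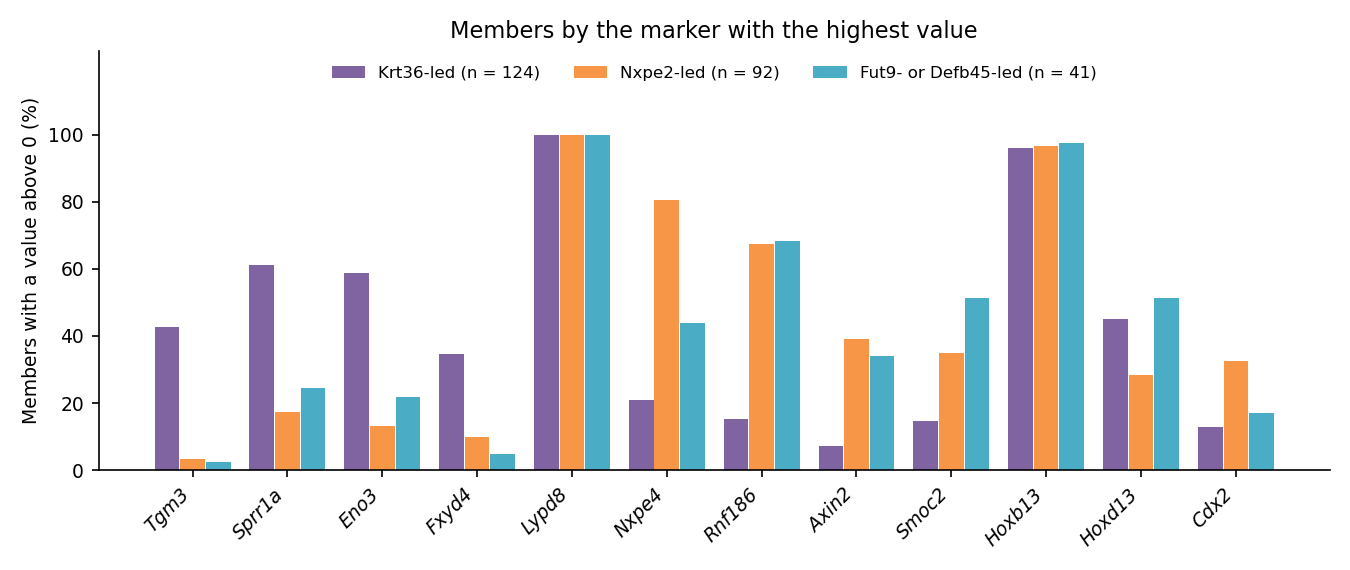
Share of members with a value above 0 (y axis, %) for genes that differed between the groups and genes at close levels (x axis) in members split by the marker with the highest value. Tgm3 was above 0 in 42.7% of Krt36-led and 3.26% of Nxpe2-led cells, and Nxpe4 in 21.0% and 80.4%.

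Krt36 and Nxpe2 also differed when members were ordered by Guca2a, which was at 0 in 154 cells, at 1 or 2 in 94 and at 3 to 9 in 51. Krt36 had means of 2.71, 6.31 and 8.16 over these steps, while Nxpe2 had means of 3.45, 1.78 and 0.490 and Fut9 of 1.21, 0.617 and 0.294. The colonocyte sum, taken without Guca2a, was 45.6, 70.7 and 98.2, and the stem and progenitor sum was 11.3, 6.28 and 6.08. The mean goblet sum was 11, 18.8 and 70.6 and the mean deep crypt secretory sum 11.2, 21.7 and 114.6, while their medians were 10, 11 and 8 and 10, 10 and 8, so few cells carried the high means. Areg had means of 4.44, 7.38 and 13.3, Car1 of 0.487, 1.35 and 5.96, and Adh1 of 11.7, 8.78 and 5.84. Hoxb13 was above 0 in 97.4%, 91.5% and 100% and Cdx2 in 20.8%, 18.1% and 21.6% of the cells at these steps. Hoxd11 was above 0 in 35.1%, 30.9% and 33.3% and Hoxd13 in 42.2%, 33.0% and 41.2%, while Hoxd10 was above 0 in 18.2%, 11.7% and 11.8% and Hoxd12 in 8.44%, 3.19% and 3.92%.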

How the data were processed

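Single-cell RNA was measured in a pooled wild-type library and a pooled reporter library of 3 mice each. The authors aligned reads to mm10 with Cell Ranger, filtered cells in Seurat 3.1 under R 3.6.2 and applied SCTransform. The score values as deposited are UMI counts after depth correction, stored as integers, and the natural log values as deposited equal ln(1 + corrected count) exactly. The correction was inferred from these matching values and the narrow range of totals. Sequencing depth is therefore unknown, and a value above 0 may not stand for a molecule seen in that cell. SCTransform moves low counts most, and shares of sparse genes carry this limit. The libraries list 17809 and 15972 genes and share 1 cell barcode. The wild-type table holds more cells than the study states after its filters. In the deposited values 101 of its 7495 cells had 25% mitochondrial values or more, the limit in the study's methods, which leaves 7394, and none of the 101 was a member.

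The cells, the 35 gene lists and the comparisons were chosen with earlier results of these data known, and the rule used the same values. Classes were assigned in the order Chgb, Muc2, cycling, Lgr5, Guca2a, marker sum. The stromal cells had Epcam and Pecam1 at 0 and a sum of Col1a1, Col1a2 and Col3a1 of at least 20. Ratios are log2 of class means plus 0.01, where low genes are understated. Named genes are those of the rule, the 20 highest and 12 lowest ratios over other epithelial cells and the 10 highest and lowest against Guca2a-high cells and cells below the cut (mean of at least 0.2 and above 0 in at least 10% of the higher class), and up to 6 genes of each list by mean or ratio. Genes of the split by leading marker, and some further list genes, were chosen after their values were seen. Some genes that the rule names are not reported here. Shares have Clopper-Pearson intervals, and a share of 0 is limited by 3 cells over the number of cells. Both cover counting error only.

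Python 3.11.15 with numpy 2.4.6, scipy 1.17.1, scanpy 1.11.5 (Scrublet) and matplotlib 3.10.9 was used. The ratio step was tested on simulated data. The alternatives comprised 20 settings, such as other cuts, each marker left out, thinning of each cell to 1000 counts, other pseudocounts and filters, and limits on mitochondrial share.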

Additional observations from a re-analysis of the deposited data

Results flagged for a closer look

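In the reporter library, sorted for GFP-positive mesenchymal cells and used in no comparison, 28 of 4409 cells had an Epcam value of at least 5 (0.635%, 0.422 to 0.916), and 1 of them met the rule. This was noted because it is epithelial signal in data outside the main measurement. Its source was not tested.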

How the results depend on the processing

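Members were 12.2% of the epithelial cells with a marker sum of at least 2, 7.61% with at least 5, 6.68% without Krt36 in the sum, 7.75% without Nxpe2, 14.3% without cells of 10% mitochondrial transcripts or more, and 11.3% without cells carrying stromal or haemoglobin RNA, the last an alternative chosen after seeing the data. Counts of 2-fold genes depended on how low values were handled. Given as higher and lower genes against other epithelial cells, Guca2a-high cells and cells below the cut in turn, thinning to 1000 counts gave 839 and 1912, 2790 and 1604, and 1149 and 1663. A pseudocount of 0.1 gave 89 and 404, 661 and 544, and 92 and 250, and a mean of at least 0.5 gave 85 and 223, 450 and 470, and 93 and 131, where fewer genes are tested. The main counts were 257 and 1039, 1824 and 947, and 272 and 726. Without the filter, lower genes numbered 1627 against other epithelial cells and 1241 against cells below the cut, and against the latter 426 with back-transformed log means and 475 without stromal or haemoglobin RNA. Beyond these constructions the cause was not tested. No ratio of a named gene changed direction over 1440 values, of which 204 moved by more than 1.5-fold. Of 85 list medians, 29 took both signs over the settings, all of them small in the reported comparison (-0.51 to 0.31). Over other epithelial cells these included Cdx and Hox genes (-0.58 to 0.25), stem and progenitor genes (-0.43 to 0.25), defence genes (-0.77 to 0.10), transcription factors (-0.26 to 0.03), Egf family genes (-0.17 to 0.05) and fat oxidation genes (-0.21 to 0.05), for which no direction is read from the median. Besides Hbb-bs, Tagln and Myl9, the log2 ratio of Cxcl5 against cells below the cut left the 2-fold range, going from 2.12 to 0.81 without Krt36 in the sum. No paired analysis was possible because each condition has 1 library and no result comes from a test.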
